A study of Mus musculus with 18 samples.

Results

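The response that 3 kinds of rotation share in the mouse hippocampus, which serves spatial memory, was sought by setting 15 libraries of rotated mice against 3 libraries of Control, which together are all 18 libraries of the series. The rotated libraries comprise S-V, rotated in 1 direction with the view blocked (5 libraries), D+V, rotated in 2 directions with the view free (5 libraries), and D-V, rotated in 2 directions with the view blocked, which the labels name the Coriolis illusion (5 libraries). The Control group (3 libraries) is labelled a blank control. Each rotated group entered with equal weight, so that the difference is the mean of the S-V, D+V and D-V group means minus the Control mean. Hippocampus was collected at once after the rotation, and polyadenylated RNA was sequenced. The sources used here do not give strain, age, sex, or the speed and length of the rotation. Nor do they say whether Control mice were placed in the apparatus or had their view blocked, so handling and restraint cannot be told apart from rotation. The labels do not state that the libraries come from separate animals, and p-values measure the spread between these libraries.

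Rotation is sensed by the semicircular canals and otolith organs of the inner ear. Their signals reach the hippocampus over several synapses, through brainstem nuclei, thalamus, the septum and the head direction circuit, and feed the neurons that represent place. Neuronal firing is known to raise immediate early transcripts such as Fos and Arc within minutes, while forced motion, as a stressor, raises corticosterone and the transcripts that its receptor induces. Rotation combined with a second axis produces conflicting vestibular signals, the Coriolis effect that leads to motion sickness in people.

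Library totals were 15.56 to 24.28 M estimated counts in S-V, 15.03 to 25.31 M in D+V, 15.39 to 21.43 M in D-V and 20.44 to 22.17 M in Control. Markers of the labelled tissue were present in every library, with Prox1 of dentate granule cells at 79.1 to 153 CPM (counts scaled to library size, with TMM factors), Wfs1 of CA1 pyramidal cells at 89.2 to 199 CPM and Grik4 of CA3 at 40.2 to 66.3 CPM. Several libraries stood apart by genes of neighbouring tissue. Transcripts of Ttr, the transthyretin of choroid plexus, passed 1000 CPM in 6 rotated libraries (2 of S-V, 2 of D+V and 2 of D-V) and reached 317, 989.8 and 49.3 CPM in Control replicates 1, 2 and 3, so that Control replicate 2 lay just under that limit. Pineal and photoreceptor transcripts were highest in Control replicate 2, at a summed 22.3 CPM, and next in S-V replicate 1, at 8.08 CPM. Control replicate 1 had the highest mean level of striatum genes, and D+V libraries 2, 3 and 5 lay apart from the rest on the second principal component. Where leaving out 1 library, the 6 Ttr-rich libraries or those 3 D+V libraries moved the log2 fold change of a named gene by over 1.5 times, the value without them stands beside it.

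No gene passed the test of the shared response. With the quasi-likelihood test of edgeR, 0 of 14763 genes tested (0%) reached a Benjamini-Hochberg adjusted p under 0.05, and the smallest adjusted p was 0.0606. At an unadjusted p under 0.05 there were 1940 genes (13.1%), 1108 of them higher (7.51%) and 832 lower (5.64%) in the rotated groups. DESeq2 called 238 genes (1.61% of the 14763, of which 5438 were given no adjusted p), 186 higher and 52 lower. The limma voom test with quality weights called 381 (2.58%), 242 higher and 139 lower. The median log2 fold change of all genes tested was 0.0017 and the median absolute value 0.11, so most differences were small. All 15 rotated libraries lay above all 3 Control libraries for 102 genes (0.691%), and all 15 lay below for 53 genes (0.359%). With upper quartile factors in place of TMM these counts were 49 and 133, with more lower than higher genes.

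**Figure D1:**
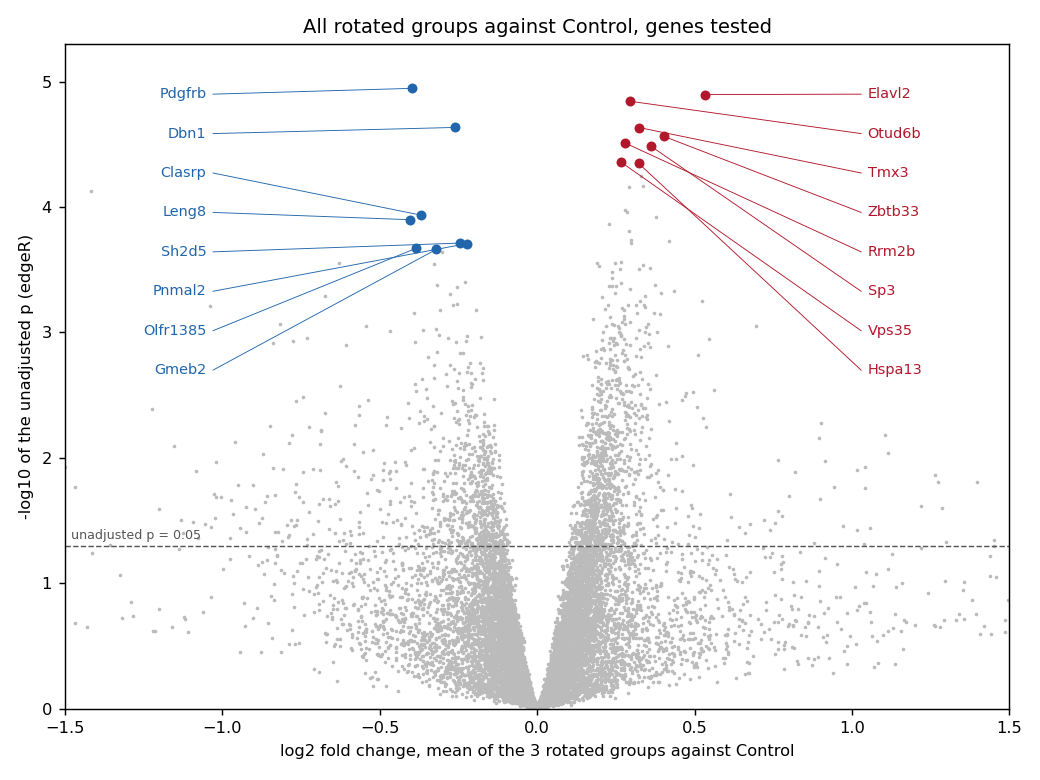
Each gray point is 1 of the genes tested, with the log2 fold change of S-V, D+V and D-V, averaged, over Control across and −log10 of the unadjusted edgeR p up the page; 76 genes beyond a log2 of 1.5 in either direction are not drawn. The 16 labelled genes, higher in red and lower in blue, are those with the smallest p in each direction (8 each) of those averaging 1 log2 CPM or more, with log2 values between −0.40 and 0.53 and adjusted p from 0.0606 to 0.104.

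Among the higher genes, those with the smallest p encode proteins of different kinds. The smallest p among them was that of Elavl2 (ENSMUSG00000008489), which encodes the neuronal RNA-binding protein HuB. Elavl2 had 59.5, 67.7, 59.9, 64.1 and 64.6 CPM in S-V, 68.5, 67.7, 97.04, 77.9 and 84.04 CPM in D+V and 66.8, 75.7, 61.4, 60.8 and 63.6 CPM in D-V, against 44.5, 49.5 and 49.03 CPM in Control. Every rotated library was above every Control library, with the widest spread in D+V, and the shared difference was log2 0.53 (SE 0.091, adjusted p 0.0606). It was 0.34 with the mean level of thalamus and habenula genes as a covariate, a level that itself differed between rotated and Control libraries. The transcription factor Sp3 (ENSMUSG00000027109), which binds GC boxes in promoters, had 48.6, 50.5, 54.97, 44.8 and 49.9 CPM in S-V, 51.7, 56.2, 55.2, 59.7 and 52.9 CPM in D+V and 49.99, 47.1, 48.98, 46.2 and 44.4 CPM in D-V, against 35.1, 40.4 and 42.7 CPM in Control. No rotated library reached down into the Control range, at log2 0.36 (SE 0.067, adjusted p 0.0606). Zbtb33 (ENSMUSG00000048047), also known as Kaiso, a zinc finger protein that recognises methylated DNA, had 30.3, 32.4, 32.4, 32.01 and 33.5 CPM in S-V, 32.8, 32.3, 37.2, 35.1 and 36.7 CPM in D+V and 31.2, 31.7, 26.8, 30.5 and 29.4 CPM in D-V, against 20.7, 25.8 and 26.7 CPM in Control. The lowest rotated library, in D-V, was just above the highest Control library, and the difference was log2 0.40 (SE 0.074, adjusted p 0.0606). As these are bulk samples, fewer cells of a type and less RNA per cell cannot be told apart here or in any result that follows.

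Another 4 of the higher genes belong to protein handling and trafficking, and the last of the 8 to nucleotide supply. Otud6b (ENSMUSG00000040550), a deubiquitinase of the ovarian tumour family, had 73.8, 68.4, 68.5, 71.6 and 75.6 CPM in S-V, 75.6, 72.8, 72.3, 75.2 and 69.1 CPM in D+V and 68.3, 72.5, 67.5, 68.1 and 62.3 CPM in D-V, against 56.9, 56.7 and 59.2 CPM in Control. This narrow spread gave log2 0.30 (SE 0.051, adjusted p 0.0606). Vps35, the core of the retromer that returns membrane proteins from endosomes, ranged from 177 to 216 CPM over the 15 rotated libraries (median 198), against 155, 172 and 161 CPM in Control. The groups did not overlap, and the difference was log2 0.27 (SE 0.051, adjusted p 0.0663). Tmx3, a thioredoxin-like disulfide isomerase in the membrane of the endoplasmic reticulum, ranged from 52.8 to 73.5 CPM over the 15 rotated libraries (median 60.8), against 47.2, 48.4 and 51.9 CPM in Control. It was at log2 0.32 (SE 0.058, adjusted p 0.0606). Hspa13, an HSP70 relative of the microsomes, ranged from 40.1 to 54.8 CPM over the 15 rotated libraries (median 47.9), against 35.6, 37.2 and 41.3 CPM in Control. It was the only one of these 8 genes whose groups overlapped, since 1 D-V library was below Control replicate 3, and its difference was log2 0.32 (SE 0.061, adjusted p 0.0663). Rrm2b, the p53-inducible small subunit of ribonucleotide reductase, ranged from 39.8 to 47.7 CPM over the 15 rotated libraries (median 44.2), against 34.2, 34.5 and 38.5 CPM in Control, at log2 0.28 (SE 0.051, adjusted p 0.0606).

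On the lower side the smallest p belonged to Pdgfrb (ENSMUSG00000024620), the receptor by which pericytes of the capillary wall respond to PDGF-B. Pdgfrb had 19.6, 22.9, 22.6, 23.4 and 22.7 CPM in S-V, 20.7, 19.7, 21.7, 23.6 and 24.4 CPM in D+V and 27.3, 26.98, 28.6, 28.6 and 25.5 CPM in D-V, against 30.9, 32.7 and 30.2 CPM in Control. The D-V libraries lay between those of the other rotated groups and Control, no rotated library reached 30.2 CPM, and the shared difference was log2 −0.40 (SE 0.067, adjusted p 0.0606). Dbn1 (ENSMUSG00000034675) encodes drebrin, which binds actin filaments in dendritic spines. Dbn1 had 269, 255, 257, 259.7 and 279 CPM in S-V, 264, 239, 262, 280.0 and 252 CPM in D+V and 312, 294, 302, 305 and 313 CPM in D-V, against 342, 329 and 319 CPM in Control. Again D-V was closest to Control without overlap, at log2 −0.26 (SE 0.047, adjusted p 0.0606). An exact two-sided permutation test over all 816 choices of 3 of the 18 libraries gave p = 0.00123 for Elavl2, Pdgfrb and Dbn1 alike, the smallest it can give. These are 3 of 17 genes given this test, with p not adjusted, and they had been put forward with earlier results of the same libraries known, so the value is a description of their separation.

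The other 6 lower genes were expressed at moderate levels and differed by at most 0.40 on the log2 scale. Clasrp, a partner of the splicing kinase CLK4, ranged from 14.4 to 21.1 CPM over the 15 rotated libraries (median 17.98), against 23.6, 22.9 and 21.7 CPM in Control. This gave log2 −0.37 (SE 0.077, adjusted p 0.0931). Leng8 ranged from 45.05 to 68.4 CPM over the 15 rotated libraries (median 55.3), against 68.5, 71.1 and 77.999 CPM in Control, so that the highest rotated library nearly met the lowest Control library, at log2 −0.40 (SE 0.084, adjusted p 0.0931). For Gmeb2, a factor that modulates the action of the glucocorticoid receptor, the range was 15.95 to 20.8 CPM over the 15 rotated libraries (median 19.03), against 23.2, 22.3 and 24.8 CPM in Control, at log2 −0.32 (SE 0.070, adjusted p 0.104). The adaptor Sh2d5, with an SH2 domain, ranged from 46.4 to 56.9 CPM over the 15 rotated libraries (median 53.1), against 62.4, 59.998 and 63.6 CPM in Control. The difference was log2 −0.24 (SE 0.053, adjusted p 0.0996). Pnmal2, of the Gag-like paraneoplastic antigen family, ranged from 428 to 512 CPM over the 15 rotated libraries (median 473), against 559, 566 and 536 CPM in Control, at log2 −0.22 (SE 0.048, adjusted p 0.0996). Olfr1385, annotated as an olfactory receptor, ranged from 16.02 to 25.04 CPM over the 15 rotated libraries (median 20.4), against 24.7, 27.5 and 29.1 CPM in Control, and it alone of the 8 lower genes overlapped, since 1 D+V library exceeded Control replicate 1, at log2 −0.38 (SE 0.084, adjusted p 0.104). Of the 16 genes named by p, 14 had no overlap, which their choice by small p favours.

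**Figure D2:**
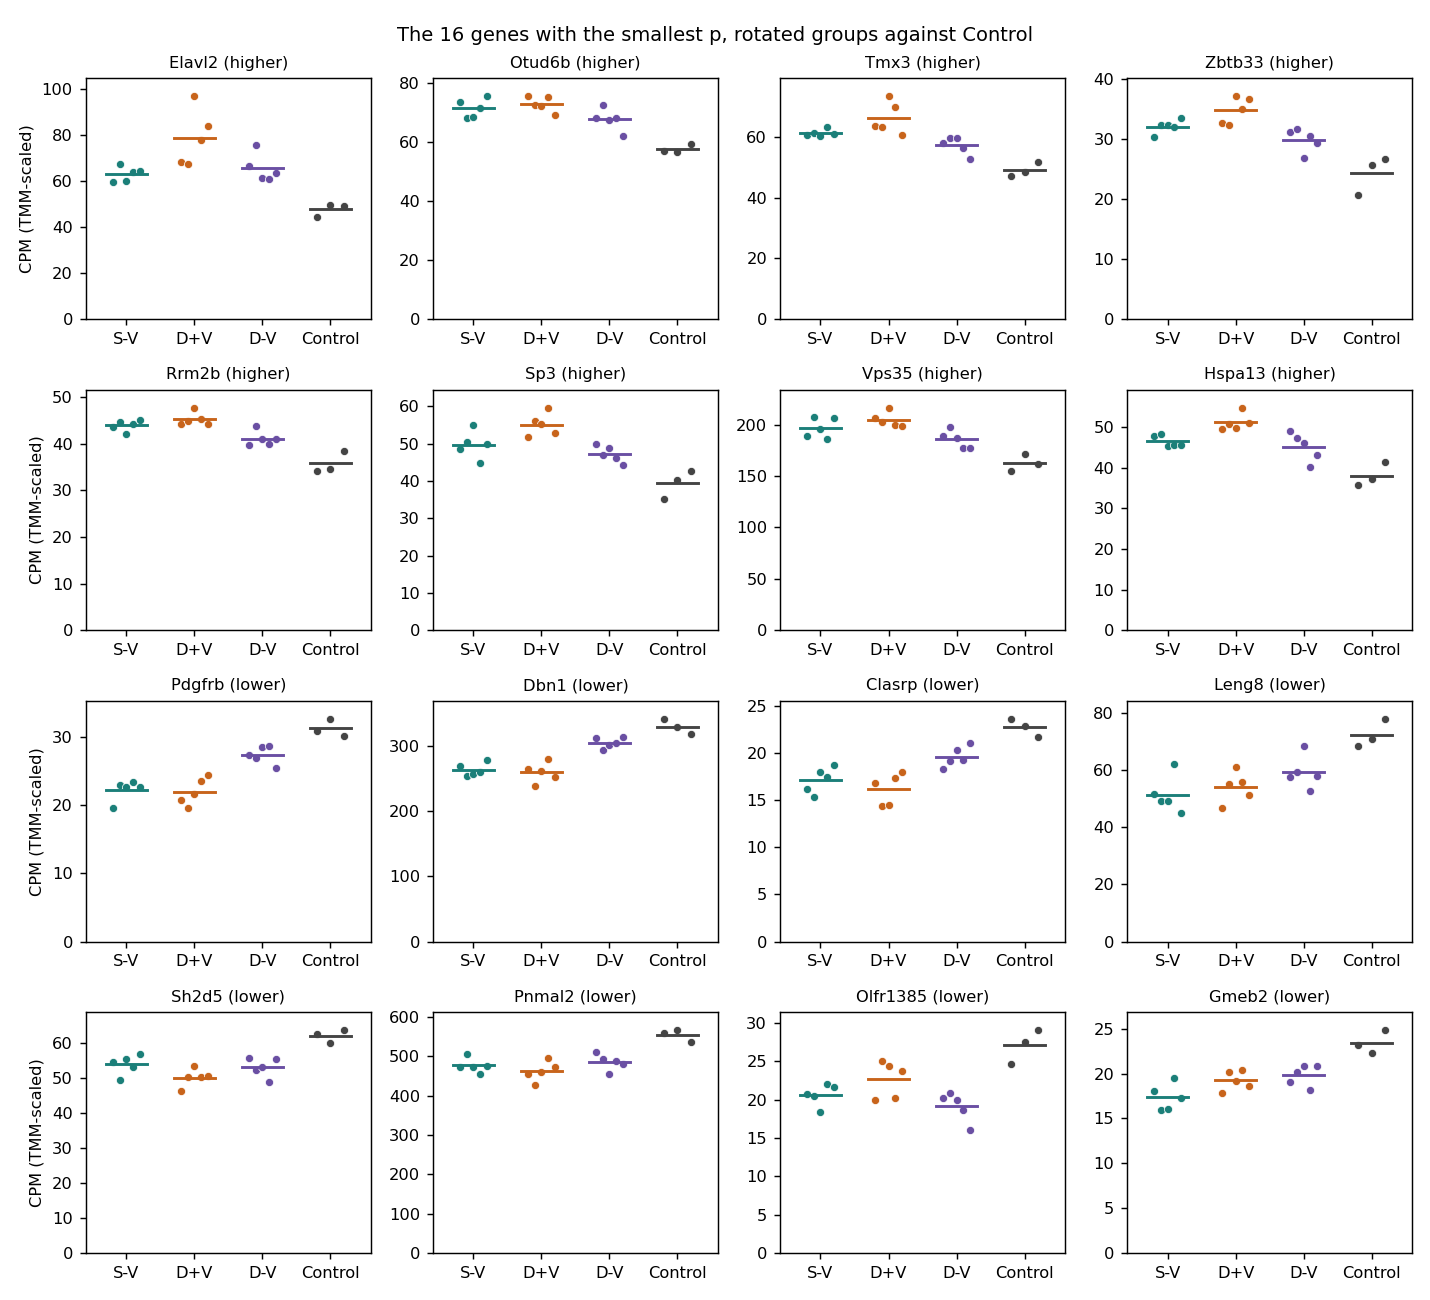
Each panel shows 1 of the 16 genes with the smallest p, with TMM-scaled CPM up the page from 0, each point 1 library and each bar the mean of a group (S-V, D+V and D-V with 5 libraries each, Control with 3). In 14 panels no rotated point crosses the Control points, and the exceptions are Hspa13 and Olfr1385.

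These calls depended on the tool. DESeq2 and limma voom each called all 16 genes, with adjusted p from 7.25e-05 to 0.00855 and from 0.0125 to 0.0328, and edgeR called none with the same counts. Without D+V libraries 2, 3 and 5, edgeR called 94 genes in all (0.637%), 14 of the 16 among them. Without the 6 libraries rich in Ttr it called 0 genes in all (2037 at an unadjusted p under 0.05), with adjusted p from 0.158 to 0.203 for the 16, although their median absolute log2 fold change came to 0.34 instead of 0.32. All 16 kept their direction in both.

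The size of the shared difference was not equal in the 3 rotated groups. Of the 16 genes, 13 had their largest deviation from Control in D+V and 13 had their smallest in D-V. Against the same Control libraries, Elavl2 was at 0.41 for S-V, 0.73 for D+V and 0.46 for D-V on the log2 scale. Pdgfrb was at −0.49 for S-V, −0.51 for D+V and −0.19 for D-V, and Dbn1 at −0.32 for S-V, −0.35 for D+V and −0.11 for D-V. The edgeR F test of S-V = D+V = D-V, in which Control libraries enter the estimate of spread but not the contrast, gave an unadjusted p under 0.05 for 12 of the 16, beside 12.8% of all genes tested. The 16 were chosen by small p in the same fit, which favours genes with a small estimated spread, so these shares cannot be compared. The F test gave Dbn1 an unadjusted p of 0.000140 and Pdgfrb 0.000259. Over all genes, 0 of 14763 passed adjustment, with a smallest adjusted p of 0.113. DESeq2 called 315 genes as different between the rotated groups and limma voom 1712. The count was 1197 in edgeR without D+V replicate 1, whereas leaving out D+V replicate 4 gave 33, so single libraries decided it. Set against Control one at a time, S-V called 0 genes (2017 at an unadjusted p under 0.05, 13.7%), D+V called 134 (0.908%; 2637 unadjusted, 17.9%) and D-V called 0 (916 unadjusted, 6.2%). All 3 comparisons share the Control libraries.

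Ranked by size among genes without overlap, the leading higher genes were Mterf1a, Elavl2, Tmem237 and Vwa5a, and the leading lower genes Hcn4, Amy1, Snhg11 and Leng8. Mterf1a, a mitochondrial transcription termination factor with a near-identical paralogue that can share its reads, had 2.56, 2.78, 3.22, 2.52 and 3.33 CPM in S-V, 2.56, 2.75, 3.05, 3.23 and 2.16 CPM in D+V and 2.52, 2.62, 2.21, 3.54 and 2.72 CPM in D-V, against 1.45, 1.81 and 1.90 CPM in Control. It was at 0.74 for S-V, 0.68 for D+V and 0.66 for D-V on the log2 scale, and the shared difference was log2 0.70 (SE 0.18, adjusted p 0.138). Tmem237, a protein of the ciliary transition zone, had 24.7, 35.4, 22.05, 31.5 and 23.004 CPM in S-V, 23.9, 37.4, 21.8, 22.1 and 21.4 CPM in D+V and 24.4, 23.7, 43.4, 33.4 and 21.9 CPM in D-V, against 20.3, 21.4 and 16.6 CPM in Control. The 5 highest libraries were all Ttr-rich, the rest lay just over Control, and the difference was log2 0.49 (SE 0.20, adjusted p 0.299, 0.26 without the Ttr-rich libraries). For Vwa5a the range was 16.1 to 27.7 CPM over the 15 rotated libraries (median 19.1), against 15.5, 14.5 and 14.9 CPM in Control. It was at log2 0.41 (SE 0.12, adjusted p 0.183).

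Hcn4, a pacemaker channel known to be abundant in thalamus and habenula, had 2.31, 2.33, 1.34, 2.26 and 1.97 CPM in S-V, 1.97, 1.44, 2.04, 1.66 and 2.60 CPM in D+V and 2.19, 2.81, 1.82, 2.67 and 2.14 CPM in D-V, against 4.40, 2.98 and 3.06 CPM in Control. Control replicate 1 was the highest library, and the difference was log2 −0.73 (SE 0.19, adjusted p 0.138). Amy1, an alpha-amylase of a gene cluster with close copies, ranged from 2.76 to 6.50 CPM over the 15 rotated libraries (median 4.37), against 6.56, 7.49 and 6.998 CPM in Control, at log2 −0.61 (SE 0.16, adjusted p 0.138). The long noncoding RNA Snhg11, a host of small nucleolar RNA expressed in neurons, ranged from 157 to 273 CPM over the 15 rotated libraries (median 222), against 303, 289 and 307 CPM in Control. This gave log2 −0.47 (SE 0.12, adjusted p 0.138). Weak genes outside the naming rule reached similar p, and are singled out after their values were seen. Slc6a3, the dopamine transporter, was at 0 to 0.742 CPM over the 15 rotated libraries (median 0.227), against 0.792, 3.48 and 0.535 CPM in Control, and Cd59b, an inhibitor of complement, at 0.195 to 0.679 CPM over the 15 rotated libraries (median 0.361), against 0.0440, 0.0903 and 0 CPM in Control. Mpp4, a scaffold protein of photoreceptors, was at 0.204 to 0.825 CPM over the 15 rotated libraries (median 0.564), against 0.836, 2.44 and 1.02 CPM in Control. In Slc6a3 and Mpp4 the highest library was Control replicate 2, the one with the most pineal and photoreceptor transcripts.

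The leading higher and lower genes differed in base composition. The 102 genes with every rotated library above Control had a median transcript GC content of 42.5% (n = 101 with a transcript), the 53 with every rotated library below had 55.7%, and all tested genes had 49.9% (n = 14743). The quartiles of all tested genes were 45.0% and 54.7%. The 8 higher genes named by p had 35.3% to 41.8%, and the 8 lower genes 42.7% to 58.2%, with Olfr1385 at the low end. To show coding sequence of such genes, the central 120 coding bases are printed for 3 higher and 3 lower genes, with G and C in capitals, 5′ to 3′, from the GRCm38 genome as annotated in GENCODE M21. These have the smallest p in each direction once Tmx3 and Pdgfrb, which a filter by chromosome removed, are left out. Coding and transcript GC content can differ, as in Elavl2, with 38.5% over its transcript and 47.5% over its coding bases. Coding GC content was not taken over all genes. The higher genes are Elavl2 at chr4:91250763-91400785 (minus strand, coding GC content 47.5%, bases 523 to 642 of 1167 shown, 47.5% GC), Otud6b at chr4:14809498-14826587 (minus strand, coding GC content 48.1%, bases 430 to 549 of 978 shown, 41.7% GC) and Zbtb33 at chrX:38189793-38197046 (plus strand, coding GC content 41.1%, bases 949 to 1068 of 2016 shown, 42.5% GC).
Elavl2: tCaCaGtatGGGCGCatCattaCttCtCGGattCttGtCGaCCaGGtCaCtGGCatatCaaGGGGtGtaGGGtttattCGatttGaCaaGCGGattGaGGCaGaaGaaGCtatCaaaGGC
Otud6b: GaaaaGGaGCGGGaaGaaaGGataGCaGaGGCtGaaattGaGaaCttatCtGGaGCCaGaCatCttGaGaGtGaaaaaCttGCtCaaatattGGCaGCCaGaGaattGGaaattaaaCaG
Zbtb33: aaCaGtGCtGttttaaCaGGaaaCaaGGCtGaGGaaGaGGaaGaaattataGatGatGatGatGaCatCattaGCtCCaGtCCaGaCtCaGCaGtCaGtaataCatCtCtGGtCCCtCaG
The lower genes are Dbn1 at chr13:55473429-55488111 (minus strand, coding GC content 59.1%, bases 1000 to 1119 of 2121 shown, 62.5% GC), Clasrp at chr7:19581035-19604486 (minus strand, coding GC content 61.7%, bases 943 to 1062 of 2007 shown, 65.8% GC) and Leng8 at chr7:4137039-4148177 (plus strand, coding GC content 58.6%, bases 1120 to 1239 of 2358 shown, 65% GC).
Dbn1: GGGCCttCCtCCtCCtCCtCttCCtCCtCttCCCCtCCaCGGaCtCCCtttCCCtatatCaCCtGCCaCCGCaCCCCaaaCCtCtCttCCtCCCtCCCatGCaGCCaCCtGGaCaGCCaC
Clasrp: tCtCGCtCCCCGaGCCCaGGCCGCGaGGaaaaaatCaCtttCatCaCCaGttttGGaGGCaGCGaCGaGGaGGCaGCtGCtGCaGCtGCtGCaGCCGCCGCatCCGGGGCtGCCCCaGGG
Leng8: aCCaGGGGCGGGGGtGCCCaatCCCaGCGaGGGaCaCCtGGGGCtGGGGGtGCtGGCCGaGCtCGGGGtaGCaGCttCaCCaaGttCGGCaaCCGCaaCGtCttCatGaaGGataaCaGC
Capitals fill 41.7% to 47.5% of the first 3 stretches and 62.5% to 65.8% of the last 3.

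Over all 14743 genes with a transcript, which are not independent replicates, the shared log2 fold change had a Spearman correlation of −0.464 with transcript GC content and 0.142 with transcript length. The correlation with GC content was −0.430 for S-V, −0.521 for D+V and −0.243 for D-V, each against the same Control libraries. With the genes in 10 equal bins by GC content, in the lowest bin the median log2 fold change was 0.14, and in the highest bin it was −0.10. Each library's own deviation from the mean of all libraries had a correlation with GC content of −0.0413, −0.232, −0.0339, −0.0524 and −0.121 in S-V, −0.0871, −0.164, −0.177, −0.335 and −0.184 in D+V and −0.120, 0.0165, 0.159, 0.283 and 0.307 in D-V, against 0.405, 0.333 and 0.129 in Control. All S-V and D+V libraries lay below all Control libraries in this measure, and 3 of 5 D-V libraries lay within the Control range. With each library's trend on GC content and length removed, the count at an unadjusted p under 0.05 was 1018 in place of 1940, the genes without overlap numbered 60 (28 higher and 32 lower) in place of 155, and 5 genes were called (0.0339%). Those 5 were Bloc1s4, higher, and Ttc14, Olfr1385, Pcp4 and Zfp994, lower. Of the 16 genes named by p, 1 was among them, Olfr1385 (adjusted p 0.0176), all 16 kept their direction, and their median absolute log2 fold change came to 0.26 instead of 0.32. Of the 16, the values shrank by over 1.5 times in Dbn1 (−0.15, adjusted p 0.679), Rrm2b (0.17), Vps35 (0.17), Sh2d5 (−0.15) and Pnmal2 (−0.12), and 36 of all 95 named genes moved by that much. Values of genes named here are from before this removal unless stated. The cause of the trend was not tested.

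**Figure D3:**
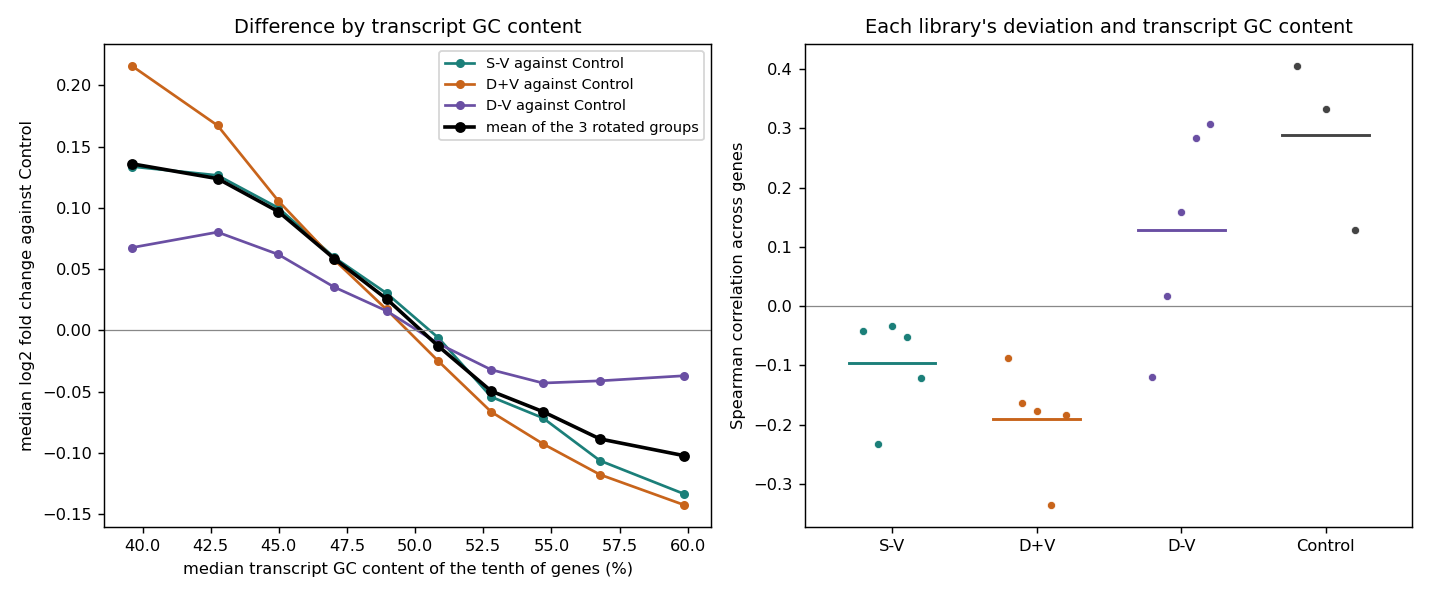
Left, median log2 fold change against Control (up the page) for 10 equal bins of genes ordered by transcript GC content in percent (across), for each rotated group and for their mean; the mean line runs from 0.14 in the lowest bin to −0.10 in the highest, and the D-V line is the flattest. Right, for each library, the Spearman correlation across genes between its log2 deviation from the mean of all libraries and transcript GC content, with bars at group means; Control libraries lie at 0.129 to 0.405, as do 3 of the D-V libraries, and all S-V and D+V libraries lie below 0.

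In promoters the sets lay closer together in GC content. In the 300 bases around the annotated start (RefSeq, GRCm38.p6), median GC content was 62.7% for the genes with all rotated libraries above Control (77 of 102 with a sequence), 59.7% for those with all below (41 of 53) and 60.7% for all tested genes (11467 of 14751). The GC box GGGCGG was in 63.6%, 51.2% and 63.0% of these sets, the CCAAT box in 35.1%, 24.4% and 38.3%, and the E-box CACGTG in 15.6%, 7.32% and 9.77%. TGACGTCA, the site of CREB, was in 3.90%, 2.44% and 3.11%, TGACTCA, the site of AP-1, in 1.299%, 2.44% and 3.37%, and TATAAA in 5.19%, 4.88% and 7.13%. All 6 motifs were searched on both strands, and a match is a description of the window only.

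Transcripts that neuronal firing induces were not higher as a group. Of 34 immediate early genes tested, 9 had a positive shared log2 fold change (26.5%, beside 50.5% of all genes), and 0 were called. At an unadjusted p under 0.05, 0 were higher (beside 7.51%) and 3 lower (8.82%, beside 5.64%). Their median was −0.12, with 0.027 for S-V, −0.24 for D+V and −0.061 for D-V, beside 0.0017 over all genes. Fos, the classic marker of recent firing, had 15.4, 17.3, 15.1, 23.6 and 17.3 CPM in S-V, 13.4, 17.2, 10.7, 11.2 and 10.1 CPM in D+V and 10.2, 11.8, 13.7, 9.99 and 22.2 CPM in D-V, against 15.1, 17.6 and 16.2 CPM in Control. The S-V libraries lay within the Control range or above it, 4 of 5 libraries in D+V and 4 of 5 in D-V lay below it, and the shared difference was log2 −0.18, SE 0.19 (adjusted p 0.717; exact two-sided permutation p = 0.402). Arc, which encodes a capsid-like synaptic protein, had 190.3, 139.5, 205, 145 and 198 CPM in S-V, 135, 169, 91.7, 127 and 115 CPM in D+V and 131, 131, 144, 122 and 224 CPM in D-V, against 116, 163 and 219.9 CPM in Control. Libraries of every group overlapped, at log2 −0.15, SE 0.19 (exact permutation p = 0.587), and at −0.36 without Control replicate 1, 0.11 without Control replicate 3 and −0.088 without the Ttr-rich libraries. Npas4, a transcription factor restricted to neurons, had 7.55, 11.3, 11.1, 12.2 and 9.53 CPM in S-V, 7.55, 9.61, 10.1, 10.7 and 8.90 CPM in D+V and 10.6, 13.1, 11.6, 8.72 and 21.1 CPM in D-V, against 18.8, 12.4 and 13.5 CPM in Control. Its rotated libraries were below all Control libraries in 13 of 15 cases, at log2 −0.47 (SE 0.19, adjusted p 0.291, −0.26 without Control replicate 1) and an exact permutation p of 0.0429.

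Among the other early genes, Egr2 ranged from 0.814 to 5.19 CPM over the 15 rotated libraries (median 2.47), against 3.17, 3.97 and 3.74 CPM in Control, at log2 −0.57 (SE 0.25, adjusted p 0.343), and Jund from 109 to 167 CPM over the 15 rotated libraries (median 129), against 163, 147 and 141 CPM in Control, at log2 −0.16 (SE 0.079, adjusted p 0.386, −0.10 without Control replicate 1). Egr1, whose exact permutation p was 0.260, was at log2 −0.17, SE 0.12, with 138 ± 11.7 CPM for S-V, 114 ± 19.6 for D+V and 120.5 ± 19.3 for D-V (SD, n = 5 each), against 139.6 ± 22.04 CPM in Control (SD, n = 3). Its log2 value was −0.29 without Control replicate 1 and −0.062 without Control replicate 3. The median of the list was −0.23 without Control replicate 1, −0.063 without Control replicate 2, −0.023 with D+V left out of the mean and −0.022 after removal of the GC content and length trends. Delayed activity genes, which follow the early wave, had a median of 0.024. Of 24, 3 were higher (12.5%, beside 7.51% of all genes) and 2 lower (8.33%, beside 5.64%) at an unadjusted p under 0.05. Spred1, an inhibitor of Ras signalling, was at 0.26 (SE 0.078), Acan, the perineuronal net proteoglycan aggrecan, at −0.44 (SE 0.18, −0.23 without Control replicate 3), and Nptx2, a secreted pentraxin that clusters AMPA receptors, at −0.27 (SE 0.11, −0.12 without Control replicate 3 and −0.17 without the Ttr-rich libraries).

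Genes induced by the glucocorticoid receptor had a shared median of 0.047, which joined 0.21 in S-V with −0.078 in D+V and −0.082 in D-V, so there was no common direction. It was −0.069 with S-V left out of the mean and −0.087 without Control replicate 1. Of 30 members, 2 were higher (6.67%, beside 7.51% of all genes) and 0 lower (beside 5.64%) at an unadjusted p under 0.05. Sgk1, a kinase that corticosterone induces, had 139, 106, 109.8, 108 and 75.7 CPM in S-V, 54.4, 84.3, 61.1, 82.6 and 81.1 CPM in D+V and 64.8, 70.1, 90.6, 76.4 and 64.5 CPM in D-V, against 63.4, 83.2 and 92.7 CPM in Control. The highest libraries were in S-V, the shared difference was log2 0.060, SE 0.15 (exact permutation p = 0.803), and the test between the rotated groups gave an unadjusted p of 0.00131 (adjusted p 0.143). That log2 value came to −0.084 without Control replicate 1, 0.18 without Control replicate 3, 0.023 without S-V replicate 1, 0.10 without S-V replicate 5, 0.035 without D-V replicate 3, −0.021 without the Ttr-rich libraries and 0.032 without D+V libraries 2, 3 and 5. Tsc22d3, which encodes GILZ, was at 0.30 for S-V, 0.066 for D+V and −0.066 for D-V, with an exact permutation p of 0.491 for the shared difference. Fkbp5, a co-chaperone of the receptor, was at log2 0.15, SE 0.10 (exact permutation p = 0.114) with 68.03 ± 4.70 CPM for S-V, 65.3 ± 9.80 for D+V and 65.6 ± 3.64 for D-V (SD, n = 5 each), against 59.6 ± 9.48 CPM in Control (SD, n = 3). Its log2 value was 0.053 without Control replicate 1 and 0.27 without Control replicate 2. Klf15, a Krüppel-like factor, was at 0.25 (SE 0.083), Klf9 at 0.20 (SE 0.094, 0.050 without Control replicate 1 and 0.35 without Control replicate 3) and the kinase Map3k6 at −0.35 (SE 0.17).

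In the core clock the median was 0.0014 over 18 genes. Nr1d2, the repressor REV-ERB beta, ranged from 65.01 to 80.6 CPM over the 15 rotated libraries (median 70.9), against 56.6, 63.4 and 64.2 CPM in Control, with no overlap, at log2 0.22 (SE 0.066, adjusted p 0.188). Arntl, which encodes BMAL1, was at 0.16 (SE 0.076) and Clock, its partner, at 0.22 (SE 0.11, 0.12 without Control replicate 1, 0.38 without Control replicate 3 and 0.12 without D+V libraries 2, 3 and 5). Per1, which both light and glucocorticoids induce, was at log2 −0.10, SE 0.082 (exact permutation p = 0.338), and at −0.20 without Control replicate 1 and −0.019 without Control replicate 3. The hour of collection is not given for the groups, so a difference in time of day cannot be told apart from the rotation.

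Chaperone transcripts leaned slightly higher without any being called. Of 28 heat shock and chaperone genes, 19 were positive and 7 were higher at an unadjusted p under 0.05 (25%, beside 7.51% of all genes), with 0 lower. Their median was 0.082 (S-V 0.091, D+V 0.024, D-V 0.086), and it stayed between 0.058 and 0.090 with any 1 library left out. Dnaja1, an HSP40 that feeds substrates to HSP70, had 319, 319.7, 306, 308 and 329.9 CPM in S-V, 365, 279, 308, 320.1 and 283 CPM in D+V and 314, 318, 299, 284 and 264 CPM in D-V, against 247, 259 and 257 CPM in Control. All rotated libraries were above Control, at log2 0.28 (SE 0.069, adjusted p 0.138). Hspd1, the mitochondrial chaperonin HSP60, ranged from 148 to 179.6 CPM over the 15 rotated libraries (median 164), against 148, 149 and 140.0 CPM in Control, at log2 0.19 (SE 0.051, adjusted p 0.152), and St13, which links HSP70 and HSP90, was at 0.22 (SE 0.064). Once GC content and length trends were removed, the list median was 0.057. Dnaja1 came to 0.16 and St13 to 0.11 in that setting, while Hspd1 lay between 0.14 and 0.22 in all alternatives.

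Endoplasmic reticulum stress genes, which the unfolded protein response raises, had a median of 0.069 (S-V 0.071, D+V −0.013, D-V 0.16). Of 29, 21 were positive (72.4%, beside 50.5% of all genes). At an unadjusted p under 0.05, 4 were higher (13.8%, beside 7.51%) and 0 lower. Hspa13, given above, led the list. Dnajb9, a co-chaperone of BiP, had 39.9, 44.5, 39.3, 43.8 and 44.4 CPM in S-V, 45.1, 38.8, 39.1, 45.6 and 42.9 CPM in D+V and 41.9, 38.8, 41.7, 43.1 and 40.01 CPM in D-V, against 35.8, 38.7 and 31.2 CPM in Control. The groups did not overlap, at log2 0.25 (SE 0.069, adjusted p 0.152). Dnajc3, another co-chaperone of that compartment, ranged from 49.6 to 75.4 CPM over the 15 rotated libraries (median 58.3), against 47.8, 47.4 and 50.9 CPM in Control. The difference was log2 0.29 (SE 0.10, adjusted p 0.234). Dnajb9 came to 0.16 and Dnajc3 to 0.18 once GC content and length trends were removed. Hspa5, which encodes BiP itself, had 273, 274, 225, 266 and 239 CPM in S-V, 314, 202, 188, 265 and 166 CPM in D+V and 383, 256, 384, 281 and 234 CPM in D-V, against 248, 213 and 197 CPM in Control. These libraries overlapped widely, with the highest values in D-V, at log2 0.25, SE 0.16 and an exact permutation p of 0.268.

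In the list for hypoxia and glycolysis, 5 of 27 genes were higher at an unadjusted p under 0.05 (18.5%, beside 7.51%) and 0 lower, though the median was −0.012 and the mean 0.028. Bnip3l, a mitophagy receptor, had 161, 154, 154, 152 and 157 CPM in S-V, 161, 158, 145, 147 and 146 CPM in D+V and 149, 151, 137, 144 and 145 CPM in D-V, against 131, 132 and 131 CPM in Control. The groups did not overlap and the Control libraries were nearly level, at log2 0.20 (SE 0.045, adjusted p 0.110). Hif1a, the oxygen-regulated transcription factor, ranged from 71.3 to 86.5 CPM over the 15 rotated libraries (median 78.6), against 57.4, 71.3 and 71.6 CPM in Control, at log2 0.24 (SE 0.064, adjusted p 0.138, 0.14 without Control replicate 1). Vegfa, the angiogenic factor it controls, ranged from 26.5 to 36.99 CPM over the 15 rotated libraries (median 32.2), against 26.8, 25.5 and 25.95 CPM in Control. It was at log2 0.30 (SE 0.092, adjusted p 0.188). After removal of GC content and length trends, Bnip3l came to 0.10 and Hif1a to 0.13, while Vegfa lay between 0.25 and 0.44 in all alternatives. Of the 13 respiratory chain genes of the mitochondrial genome, 10 were positive with a median of 0.12 (S-V 0.12, D+V 0.10, D-V 0.10), but it was 0.050 without Control replicate 3, 0.20 without replicate 2 and −0.041 after removal of those trends in GC content and length. The subunits mt-Nd3 of complex I and mt-Co1 of complex IV were at 0.42 (SE 0.13) and 0.15 (SE 0.062), and mt-Nd4l was at 0.25 (SE 0.16, 0.14 without the Ttr-rich libraries and 0.11 without D+V libraries 2, 3 and 5).

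**Figure D4:**
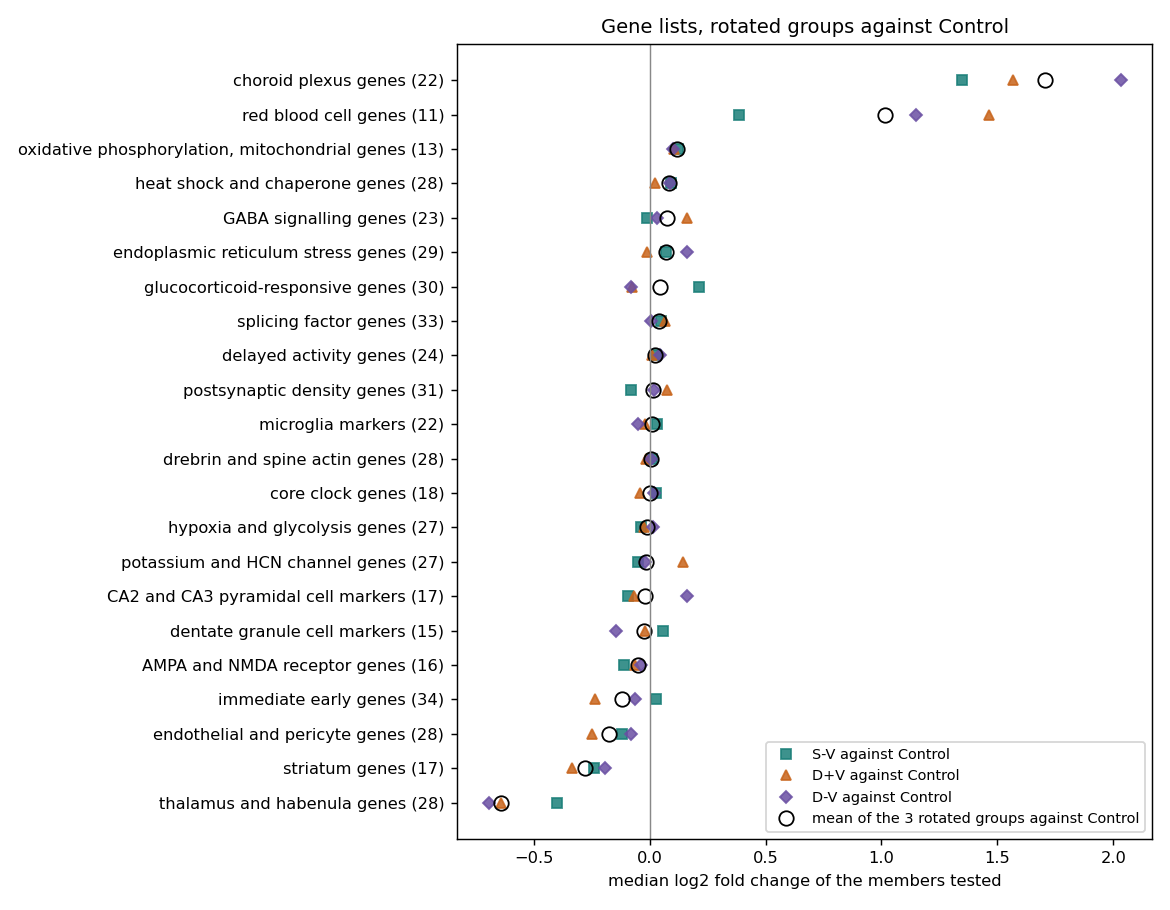
Median log2 fold change of the members tested (across) for the 22 gene lists described, with the number of members tested in brackets. Filled marks give S-V, D+V and D-V against Control, and open circles the mean of the 3 groups, with a gray line at the median of all genes tested, 0.0017. Choroid plexus genes at 1.71 and red blood cell genes at 1.02 lie far to the right, thalamus and habenula genes at −0.64 to the left, and the lists of neuronal function lie close to the line.

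Synaptic lists, and those of spine actin, potassium channels and splicing, had medians near that of all genes, and with each library left out they lay between −0.11 and 0.14. Of 16 AMPA and NMDA receptor genes 12 were negative, with a median of −0.049 and 0 at an unadjusted p under 0.05. Grin1, the subunit that all NMDA receptors need, was at −0.16 (SE 0.079, −0.092 without Control replicate 3 and −0.10 without the Ttr-rich libraries), Cacng3, an auxiliary subunit of AMPA receptors, at −0.15 (SE 0.075, −0.23 without Control replicate 1, −0.079 without Control replicate 3 and −0.10 without the Ttr-rich libraries), and Grin2c at −0.16 (SE 0.10, −0.084 without Control replicate 3). GABA signalling genes had a median of 0.076 (S-V −0.010, D+V 0.16, D-V 0.031), which was 0.0076 without Control replicate 2. Gabra5, a subunit of the GABA-A receptor typical of hippocampus, was at 0.18 (SE 0.089, 0.059 without Control replicate 1), and Slc6a11, the GABA transporter GAT3, at −0.20 (SE 0.10, −0.064 without Control replicate 1).

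Genes of the postsynaptic density had a median of 0.015 (S-V −0.078, D+V 0.076, D-V 0.019). Dlg4, which encodes PSD-95, ranged from 814 to 939 CPM over the 15 rotated libraries (median 879), against 932, 989.7 and 989.8 CPM in Control, at log2 −0.14 (SE 0.051, adjusted p 0.235), while its relative Dlg1 was at 0.14 (SE 0.061) and Ppp3cb, a catalytic subunit of calcineurin, at 0.18 (SE 0.068, 0.11 without Control replicate 1). For drebrin and other regulators of spine actin the median was 0.0075. Dbn1 was the single member of 28 that was lower at an unadjusted p under 0.05 (3.57%, beside 5.64% of all genes). Abi1 and Cyfip1, members of the WAVE complex that nucleates branched actin, were at 0.22 (SE 0.073) and 0.14 (SE 0.060, 0.091 without Control replicate 1 and 0.21 without Control replicate 3). Potassium and HCN channel genes had a median of −0.016 (S-V −0.051, D+V 0.14, D-V −0.019), and of 0.14 without Control replicate 3. At an unadjusted p under 0.05, 3 of 27 were lower (11.1%, beside 5.64% of all genes). They were Hcn4, Hcn2 at −0.17 (SE 0.057) and Kcna6 at −0.15 (SE 0.072, −0.067 without Control replicate 1). Splicing factor genes had a median of 0.039. Beside Clasrp, Hnrnpk, which binds C-rich RNA, ranged from 362 to 409.9 CPM over the 15 rotated libraries (median 386), against 342, 359.6 and 349.6 CPM in Control, with no overlap at log2 0.13 (SE 0.044, adjusted p 0.212), and Srsf7, an SR protein, was at 0.17 (SE 0.061). Removal of GC content and length trends left Dlg1 at 0.019, Ppp3cb at 0.089, Abi1 at 0.12 and Cyfip1 at 0.058. It left Hcn2 at −0.055, Hnrnpk at 0.042 and Srsf7 at 0.079. Dlg4, Hcn4 and Clasrp did not shrink by over 1.5 times in any alternative.

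Markers of hippocampal cell types had medians near 0. Those of dentate granule cells were at −0.024 (S-V 0.057, D+V −0.018, D-V −0.15), and at −0.24 without Control replicate 1 and 0.074 without Control replicate 3. Sema5b, a guidance protein, ranged from 10.3 to 17.5 CPM over the 15 rotated libraries (median 13.5), against 18.9, 17.9 and 18.1 CPM in Control, with no overlap at log2 −0.39 (SE 0.11, adjusted p 0.168), and the secreted synaptic organisers C1ql2 and C1ql3 were at −0.36 (SE 0.13) and 0.25 (SE 0.13, 0.091 without Control replicate 1 and 0.41 without Control replicate 3). Markers of CA2 and CA3 pyramidal cells were at −0.020 (S-V −0.094, D+V −0.066, D-V 0.16). Besides Elavl2 they included Nectin3, an adhesion molecule, at 0.34 (SE 0.090), and Ptpn5, the striatum-enriched phosphatase STEP, at −0.27 (SE 0.081, −0.10 without Control replicate 1).

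Microglia markers had a median of 0.011 (S-V 0.032, D+V −0.019, D-V −0.049), with 11 of 22 positive and 11 negative. At an unadjusted p under 0.05, 3 were higher (13.6%, beside 7.51% of all genes) and 1 lower (4.55%, beside 5.64%). Those named here are the 3 that the rule by smallest p gave, and all of them were higher. Gpr34, a lysophosphatidylserine receptor of microglia, had 16.8, 13.5, 18.5, 13.9 and 17.03 CPM in S-V, 16.9, 14.1, 15.6, 13.4 and 15.1 CPM in D+V and 13.6, 14.2, 14.01, 12.7 and 12.5 CPM in D-V, against 11.1, 11.8 and 10.8 CPM in Control. The groups did not overlap, at log2 0.39 (SE 0.10, adjusted p 0.130). P2ry12, the receptor by which microglial processes sense ADP, ranged from 35.7 to 49.9 CPM over the 15 rotated libraries (median 41.4), against 28.9, 36.97 and 34.4 CPM in Control, at log2 0.31 (SE 0.087, adjusted p 0.164), and Ly86 (MD-1) was at 0.44 (SE 0.15).

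Endothelial and pericyte genes were mostly lower, though 0 were called. Of 28 members 24 were negative, 7 were lower at an unadjusted p under 0.05 (25%, beside 5.64% of all genes) and 1 higher. Their median was −0.18 (S-V −0.12, D+V −0.25, D-V −0.080). The mean level of the list, as log2 CPM centred over libraries, was −0.037, −0.023, −0.023, 0.048 and 0.0016 in S-V, −0.10, −0.23, −0.15, 0.057 and −0.27 in D+V and 0.019, −0.051, 0.16, 0.16 and 0.046 in D-V, against 0.042, 0.31 and 0.053 in Control. In 10 of 15 cases a rotated library lay below all Control libraries. Control replicate 2 was the highest library, and without it the median was −0.088. Cldn5, the tight junction protein of brain endothelium, ranged from 22.8 to 44.6 CPM over the 15 rotated libraries (median 37.02), against 46.9, 46.5 and 38.3 CPM in Control, with its lowest values in D+V, at log2 −0.33 (SE 0.11, adjusted p 0.222) and an exact permutation p of 0.0490. Cspg4, which encodes the NG2 proteoglycan of pericytes and oligodendrocyte precursors, was at −0.46 for S-V, −0.37 for D+V and 0.019 for D-V, and the test between the rotated groups gave it an unadjusted p of 0.000137.

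The largest list medians belonged to tissue next to the hippocampus and to blood. All 22 choroid plexus genes tested were positive, with a median of 1.71, and 0 had an unadjusted p under 0.05, with libraries of each rotated group far apart. Summed over the list, levels were 895, 6082, 1232, 5644 and 431 CPM in S-V, 416, 13059, 386, 376 and 1976 CPM in D+V and 387, 485, 14869, 7104 and 403 CPM in D-V, against 755, 1685 and 372 CPM in Control. Without the 6 libraries rich in Ttr the median was −0.71, which the choice of libraries by a gene of the list favours. Ttr itself had 339.7, 3791, 662, 3525 and 88.3 CPM in S-V, 73.1, 8347, 35.6, 43.3 and 1120.1 CPM in D+V and 49.9, 139.7, 9999.6, 4877 and 66.7 CPM in D-V, against 317, 989.8 and 49.3 CPM in Control, with an exact permutation p of 0.650. The channel Kcnj13 was at 2.90 (SE 1.65, −0.81 without the Ttr-rich libraries and 1.46 without D+V libraries 2, 3 and 5), Kl, the klotho gene, at 1.51 (SE 0.91, −0.20 without the Ttr-rich libraries and 0.88 without D+V libraries 2, 3 and 5), and Enpp2, which makes lysophosphatidic acid, at 1.65 (SE 1.03, 1.10 without D+V replicate 2, −0.36 without the Ttr-rich libraries and 0.93 without D+V libraries 2, 3 and 5).

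Red blood cell genes had a median of 1.02 (S-V 0.39, D+V 1.46, D-V 1.15), with 10 of 11 positive. At an unadjusted p under 0.05, 5 were higher (45.5%, beside 7.51% of all genes). Hbb-bs, an adult beta globin, had 291, 371, 258, 337 and 446 CPM in S-V, 517, 1367, 647, 170.0 and 485 CPM in D+V and 516, 488, 722, 385 and 442 CPM in D-V, against 206, 261 and 203 CPM in Control. In 13 of 15 cases the rotated library was above all Control libraries, at log2 1.11 (SE 0.36, adjusted p 0.210) and an exact permutation p of 0.0306. Hbb-bt was at 1.12 (SE 0.38) and Hba-a2 at 1.04 (SE 0.37). Counting can divide reads arbitrarily between these globin genes, which are nearly the same in sequence. Without D+V libraries 2, 3 and 5 the list median was 0.68. The labels do not say how blood was removed, and its part in other results was not tested.

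Genes of thalamus and habenula, which adjoin the hippocampus, were mostly lower, though 0 were called. Of 28 tested, 25 were negative and 12 lower at an unadjusted p under 0.05 (42.9%, beside 5.64% of all genes), with 0 higher. Their median was −0.64 (S-V −0.40, D+V −0.64, D-V −0.69). The mean centred log2 level was −0.00058, 0.22, 0.091, 0.18 and −0.13 in S-V, 0.25, 0.23, −0.26, −0.44 and −0.021 in D+V and −0.19, −0.51, −0.12, −0.32 and −0.35 in D-V, against 0.45, 0.66 and 0.25 in Control. In 14 of 15 cases a rotated library was below all Control libraries, and the exception, D+V replicate 1, was level with Control replicate 3. Synpo2, an actin-binding protein of thalamic neurons, had 6.76, 9.20, 9.59, 10.0003 and 6.82 CPM in S-V, 8.68, 8.26, 6.85, 5.75 and 8.22 CPM in D+V and 7.60, 6.36, 7.40, 6.39 and 6.29 CPM in D-V, against 11.5, 14.5 and 9.14 CPM in Control, at log2 −0.63 (SE 0.14, adjusted p 0.110) and an exact permutation p of 0.00490. Tcf7l2, a transcription factor that marks thalamus, ranged from 2.72 to 9.94 CPM over the 15 rotated libraries (median 5.53), against 8.54, 12.6 and 6.71 CPM in Control, at log2 −0.84 (SE 0.22, adjusted p 0.138) and an exact permutation p of 0.0172, and Ramp3, a receptor-modifying protein, was at −0.76 (SE 0.23, −0.26 without Control replicate 2). Without Control replicate 1 the list median was −0.34, and without replicate 2 it was −0.49.

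Striatum genes had a median of −0.28, with 14 of 17 negative. At an unadjusted p under 0.05, 5 were lower (29.4%, beside 5.64% of all genes). The median was 0.022 without Control replicate 1. In that library Drd2, the dopamine receptor of indirect pathway neurons, was at 9.95 CPM, the highest of all libraries. Among the named members Rasd2 was at −0.28 (SE 0.077), Syndig1l at −0.48 (SE 0.15) and Scn4b, a sodium channel subunit, at −0.41 (SE 0.16). Pineal and photoreceptor genes, listed after the values were seen, were highest in Control replicate 2. Their summed level was 8.08, 5.28, 4.33, 2.89 and 4.45 CPM in S-V, 2.71, 2.71, 1.43, 2.01 and 2.66 CPM in D+V and 2.05, 2.28, 1.62, 2.61 and 2.72 CPM in D-V, against 1.72, 22.3 and 3.74 CPM in Control. Every S-V library was above every D+V and D-V library. The retinoid carrier Rbp3 had 1.90, 0.625, 0.994, 0.189 and 1.01 CPM in S-V, 0.197, 0, 0.0679, 0.158 and 0.124 CPM in D+V and 0.0933, 0.0485, 0, 0.174 and 0.324 CPM in D-V, against 0.0440, 7.13 and 0.437 CPM in Control, and its log2 fold change was −3.37 with all libraries and 0.014 without Control replicate 2. The part of neighbouring tissue in the results for other genes was not tested beyond the values given without these libraries and fits with a tissue level as covariate. With the mean level of thalamus and habenula genes in the fit, 41 of the 95 named genes moved by over 1.5 times in either direction. Elavl2 was the only one of the 16 named by p among them. The choroid plexus level moved 5 of the 95 by that much. As the thalamus and habenula level was below all Control libraries in 14 of 15 rotated libraries, its fit cannot fully tell that level apart from the groups. With it as covariate the median of choroid plexus genes came to 5.36 in place of 1.71.

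**Figure D5:**
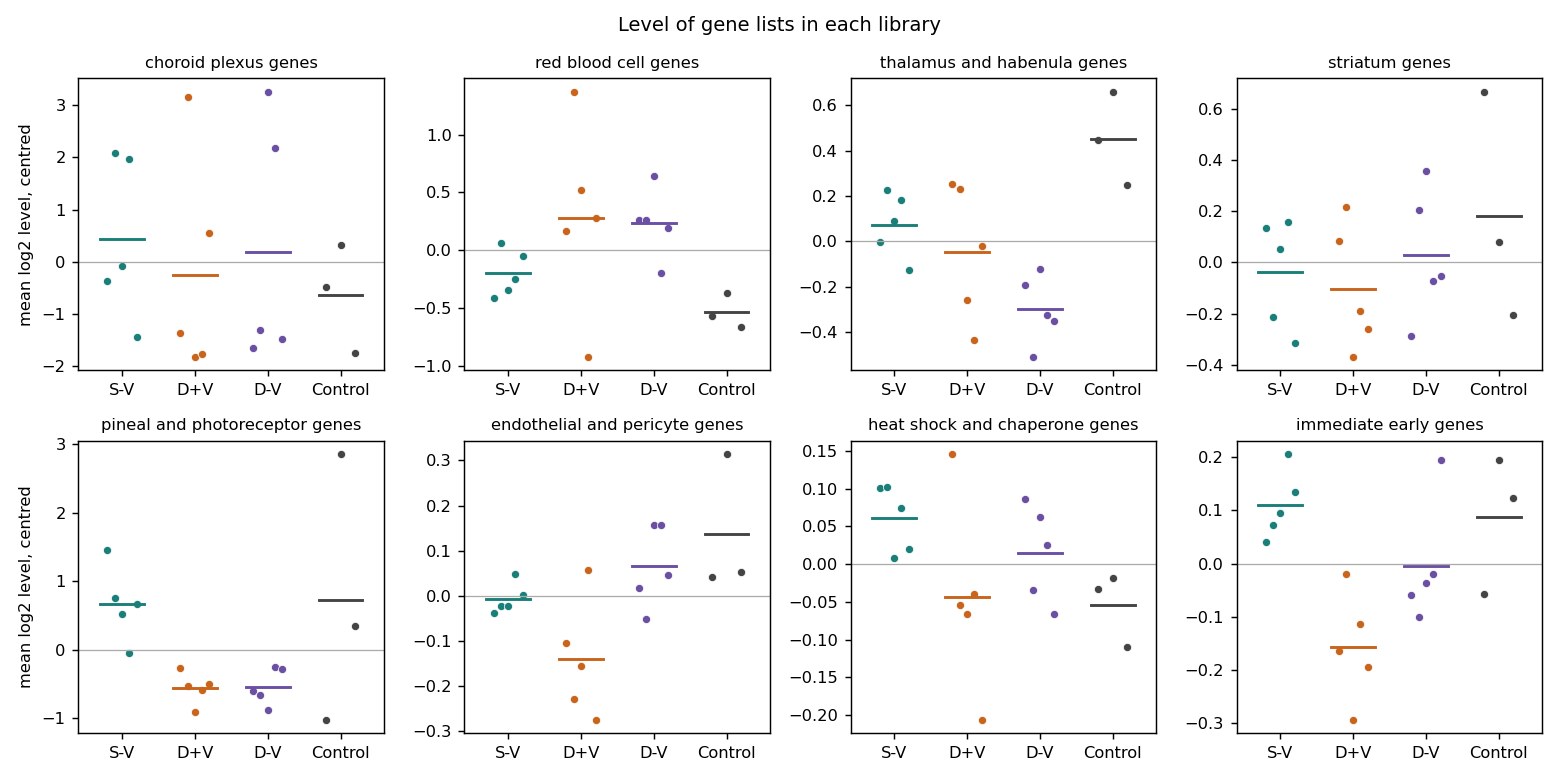
Mean log2 CPM of the members of 8 gene lists in each library, centred over libraries (up the page), by group (S-V, D+V and D-V with 5 libraries each, Control with 3), with bars at group means. Thalamus and habenula genes are highest in Control, at 0.25 to 0.66; red blood cell genes are above all Control libraries in 13 of 15 rotated libraries; 1 Control library stands apart at 2.85 for pineal and photoreceptor genes; and choroid plexus genes split the rotated libraries into high and low ones.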

How the data were processed

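Per the file headers, the authors made estimated counts per gene (expected counts, by a tool that is not stated) for 18 mouse hippocampus libraries and deposited them unscaled; 7.35% of values were not whole, and all were rounded here. Per the labels' protocols, Trizol served for extraction, polyadenylated RNA was captured on oligo(dT), libraries were made with the NEBNext Ultra kit and sequenced on a NovaSeq. The tools listed, per the submitters' processing notes, are DESeq2, StringTie 1.3.1, HISAT2 and Bowtie2 2.2.8. No build, annotation or counting option, strand among them, is given in the sources used here. A gene and its antisense partner, or near-identical copies, may share reads. Of 22063 genes, 21973 carried a symbol, and the 90 without one held 0.0562% of counts.

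In R 4.3.3, edgeR 4.0.16 (filterByExpr, TMM, quasi-likelihood F test) was fitted to 4 group means over all 18 libraries, with the contrast of the mean of S-V, D+V and D-V against Control and Benjamini-Hochberg adjustment over the 14763 genes kept, which held 99.97% of counts. A gene was called at an adjusted p under 0.05, and the common biological coefficient of variation was 15.4%. Log2 fold changes are of the rotated mean over Control, and levels are TMM-scaled CPM. The script was tested on simulated counts. Alternatives were DESeq2 1.42.0 (5438 adjusted p were NA and left as such), limma 3.58.1 voom with quality weights, sva 3.50.0, other scalings, filters and designs, a composition correction (a spline of 4 df on transcript GC content and length, per library), covariates, and libraries or groups left out. GC content and length come from GENCODE M21 transcripts.

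Named genes were the 8 with the smallest p in each direction, the 4 largest in each direction without overlap between rotated and Control libraries, the 3 with the smallest p of each of 22 described lists (all at a mean of 1 log2 CPM or more), and 17 genes given an exact permutation test over samples. Slc6a3, Mpp4, Cd59b and Rbp3 were added to the named genes after their values were seen. The members and lists were chosen with earlier results of these data known. Replicate numbers were not taken to pair libraries. Some results are not reported here.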

Additional observations from a re-analysis of the deposited data

Results flagged for a closer look

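Within groups of 5 libraries, 17 of 291 groups examined (5.84%) held a library whose gap to its nearest neighbour took more than 0.710 of the group's range, where chance gives about 1 in 20. The value given first for each gene below is that share.

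Among the genes with the smallest p, Pdgfrb had a share of 0.812 in S-V, where replicate 1 was at 19.6 CPM and the others at 22.6 to 23.4 CPM. Rrm2b had 0.715 in D+V (replicate 3 at 47.7 CPM, the others at 44.2 to 45.2) and Hspa13 had 0.711 in D+V (replicate 4 at 54.8 CPM, the others at 49.5 to 51.0). All 3 of these libraries lay farther from Control than the rest of their group.

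Amy1 stood out in S-V, with 0.915 (replicate 5 at 2.76 CPM, the others at 4.21 to 4.37), and in D+V, with 0.751 (replicate 4 at 4.65 CPM, the others at 5.63 to 6.0). Tmem237 had 0.7999 in D+V (replicate 2 at 37.4 CPM, the others at 21.4 to 23.9) and Mpp4 had 0.726 in D+V (replicate 3 at 0.204 CPM, the others at 0.395 to 0.494). Nectin3 had 0.788 in S-V (replicate 4 at 28.8 CPM, the others at 34.1 to 35.7), Clock had 0.753 in S-V (replicate 2 at 66.1 CPM, the others at 54.2 to 56.9) and Srsf7 had 0.870 in D-V (replicate 1 at 79.002 CPM, the others at 70.8 to 71.8).

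D-V replicate 3, 1 of the libraries rich in Ttr, was the separate library for Hba-a2 (0.725, at 458 CPM beside 239 to 286), Fkbp5 (0.756, at 59.3 CPM beside 66.4 to 68.8) and mt-Nd4l (0.742, at 221 CPM beside 168 to 181). D+V replicate 1 was the separate library for C1ql3 (0.764, at 57.0 CPM beside 78.0 to 86.0) and Per1 (0.746, at 45.6 CPM beside 52.1 to 54.6). Arc had 0.728 in D-V (replicate 5 at 224 CPM, the others at 122 to 144). The total count of S-V replicate 1 gave 0.739 within S-V.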

How the results depend on the processing

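With 3 Control libraries, the number of calls depended on the tool and on single libraries. From 0 genes called with edgeR and TMM, the count was 2 with upper quartile factors, 238 with DESeq2, 381 with limma voom, 46 with the first surrogate variable, 38 with the choroid plexus level as a covariate, 5 with GC and length trends removed, 37 without the D-V group and 94 without D+V libraries 2, 3 and 5 (chosen after seeing the data). It ran from 0 to 8 with each library left out, with 8 without D+V replicate 1 and 3 without Control replicate 1. From 1940 genes at an unadjusted p under 0.05, the count was 3195 with voom, 1018 with GC and length trends removed, 858 with that and the replicate block, and 1252 (without Control replicate 1) to 2374 with each library left out; it was 717 with trends removed and Control replicate 2 left out together, a setting added after seeing the data. Genes that differ between the rotated groups were 0 with edgeR, 315 with DESeq2, 1712 with voom and 0 to 1197 with each library left out. The 155 genes without overlap became 60 with the trends removed, 455 without the libraries rich in Ttr, 340 without D+V libraries 2, 3 and 5, and 156 to 669 with each library left out, where leaving out Control replicates 1, 2 and 3 gave 392, 354 and 669; fewer libraries make overlap less likely.

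With the replicate block 0 genes were called (smallest adjusted p 0.163) and 1712 had an unadjusted p under 0.05. Of 24 pairs of libraries with the same number, 9 correlated above 0.1 (range −0.452 to 0.340) and 3 of 18 libraries correlated best with their own number, so the numbers were not taken to pair the libraries.

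Of 95 named genes, 84 kept their direction under every alternative that gave them a value (37, or 36 for a gene that the stricter filter left out); the cause of each reversal was not tested. With the thalamus level as a covariate C1ql3 was at −0.094 and Fos at 0.11. Without the libraries rich in Ttr, Kcnj13 was at −0.81, Kl at −0.20, Enpp2 at −0.36, Ttr at −1.94 and Sgk1 at −0.021. Ttr was also at −0.17 with voom, −0.11 with the surrogate variable and −0.35 with the choroid plexus covariate. With GC and length trends removed mt-Nd4l was at −0.061, at −0.090 with the replicate block and at −0.12 without Control replicate 2, and in these last 2 settings Per1 was at 0.010 and 0.031. Rbp3 was at 0.10 with trends removed and without Control replicate 2, and ran from −3.94 to 0.014 with each library left out. Arc ran from −0.36 to 0.11 and Sgk1 from −0.084 to 0.18 in the same way, and Sgk1 was at −0.13 without the S-V group.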

Other observations

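Several further groups of genes had medians near that of all genes tested, 0.0017 on the log2 scale, with 0 members called in each. Of all genes tested, 7.51% were higher and 5.64% lower at an unadjusted p under 0.05. The 53 cytosolic ribosomal protein genes had a shared median of 0.0032 with 0 members at an unadjusted p under 0.05 in either direction, and 0.11 in S-V. The 42 nuclear genes of oxidative phosphorylation had a median of 0.016, with 1 member higher at an unadjusted p under 0.05. The 21 interferon and antigen presentation genes were at −0.032 with 0 members at that p, and the 15 inflammation genes tested were at −0.0024 with 1 higher. The 25 oligodendrocyte and myelin genes were at −0.0011, the 20 astrocyte markers at 0.048, the 18 interneuron markers at 0.020, the 25 genes of ependyma and motile cilia at 0.024 and the 17 meningeal and fibroblast genes at 0.093. Antioxidant genes under the factor Nrf2 were at 0.035, with 2 of 21 higher at an unadjusted p under 0.05.

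In the receptor and channel lists, kainate and metabotropic glutamate receptor genes had a median of 0.049, with 2 of 14 lower at an unadjusted p under 0.05 (14.3%, beside 5.64% of all genes). Receptors for histamine, acetylcholine and monoamines were at −0.031, with 2 of 28 higher and 2 lower. Voltage-gated sodium and calcium channel genes were at −0.027, with 2 of 23 lower, spectrin and ankyrin genes at 0.019, with 1 of 15 lower, and synaptic vesicle and release genes at −0.042, with 2 of 29 higher and 1 lower. The 7 corticosteroid and CRH receptor genes were at 0.058, with 0 at that p in either direction. Markers of CA1 pyramidal cells were at −0.052 and neocortex genes at 0.00097.

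Some of these medians rested on single libraries. Ependyma and motile cilia genes were at 0.596 without Control replicate 1 and −0.255 without Control replicate 3. Meningeal and fibroblast genes were at 0.504 without Control replicate 2 and −0.120 without Control replicate 1. Inflammation genes were at 0.189 without Control replicate 2, oligodendrocyte and myelin genes at 0.139 without Control replicate 1 and −0.125 without Control replicate 2, and interneuron markers at 0.118 without Control replicate 1. Corticosteroid and CRH receptor genes were at 0.178 without Control replicate 3 and interferon and antigen presentation genes at −0.118 without D+V replicate 1. The medians of the other lists named here lay between −0.094 and 0.077 with each library left out.

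The 5 genes called once trends on GC content and length were removed were Bloc1s4, a subunit of the BLOC-1 complex of endosomes, at 0.45 in place of 0.38, Ttc14 at −0.42 in place of −0.33, Olfr1385 at −0.49 in place of −0.38, Pcp4, a small calmodulin-binding protein, at −0.42 in place of −0.28, and the zinc finger gene Zfp994 at −0.78 in place of −0.67.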
